A study of Mus musculus with 6 samples.

Results

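Oxidative phosphorylation is built from the products of 2 genomes, and the 102 genes described here are those of its complexes in mouse small intestine: 13 mRNAs of the mitochondrial genome and 89 protein-coding genes of the nuclear genome. They were chosen by symbol from a table of 45777 genes. The nuclear members are the protein-coding rows whose symbols start with Ndufa, Ndufb, Ndufc, Ndufs, Ndufv, Uqcr, Cox4i, Cox5, Cox6, Cox7, Cox8 or Atp5, leaving out Ndufaf, together with Sdha to Sdhd, Cyc1 and Cycs. All 13 mitochondrial mRNAs and 86 of the 89 nuclear members passed the filter on low counts, and the other 3 (Cox6a2, Cox7b2 and Cox8c) had almost no reads.

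The respiratory chain passes electrons from NADH and succinate to oxygen through complexes I to IV and pumps protons across the inner mitochondrial membrane, and ATP synthase (complex V) uses the returning protons to make ATP. Complexes I, III, IV and V each hold subunits from both genomes, whereas complex II and cytochrome c come from the nucleus alone. The mitochondrial genes are transcribed from both strands as long precursors that are cut into mRNAs, ribosomal RNAs and tRNAs, while each nuclear gene has its own promoter. In the small intestine the absorptive enterocytes are rich in mitochondria, and so are the muscle cells of the wall.

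The 6 libraries hold total RNA of whole mouse small intestine. In the labels, 3 are controls with GFP in their titles (1-1, 1-4 and 3-1), and 3 are marked for PKCzeta overexpression (2-1, 4-1 and 4-2). PKCzeta, the product of Prkcz, is an atypical member of the protein kinase C family, and the study was set up to find genes that differ after its overexpression. Both groups also carry the letters DIO in their titles, which the labels do not explain. The sources used here do not give strain, sex, age, the promoter of the construct or whether each library is 1 animal, so p-values measure only the spread between these libraries, which may be technical. In bulk tissue, fewer cells of a type and less RNA per cell cannot be told apart.

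Total counts ran from 77573133 to 93742978 per library. Prkcz itself was at 70.5, 98.6 and 96.9 CPM (counts brought to 1 library size, after TMM scaling) in GFP 1-1, 1-4 and 3-1, and at 82.5, 100.04 and 57.0 CPM in PKCzeta 2-1, 4-1 and 4-2. The log2 fold change, PKCzeta minus GFP, was −0.15 (edgeR adjusted p = 0.950), so the targeted gene was no higher under the PKCzeta label, and directions below are between labels. The sources used here do not say whether reads of an introduced copy would be counted in that row.

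The compact layout of the mitochondrial genome bears on how its mRNAs can be counted, so the places where 2 mRNAs of the same strand share more than 1 base are shown first. ATP8 and ATP6, the 2 mitochondrial subunits of ATP synthase, lie on 1 mRNA and share 43 bases. The stretches below are from the GENCODE M21 transcripts (GRCm38), plus strand, with the shared bases in capitals. ATP8 is shown at chrM:7897-7969 and ATP6 at chrM:7927-7999.
ATP8: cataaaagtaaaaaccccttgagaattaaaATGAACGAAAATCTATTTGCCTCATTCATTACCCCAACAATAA
ATP6: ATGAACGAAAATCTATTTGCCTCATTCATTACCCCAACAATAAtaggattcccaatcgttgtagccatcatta

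ND4L and ND4, 2 subunits of complex I, are likewise read from 1 mRNA and share 7 bases, again in capitals, at chrM:10137-10173 for ND4L and chrM:10167-10203 for ND4.
ND4L: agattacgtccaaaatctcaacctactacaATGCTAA
ND4: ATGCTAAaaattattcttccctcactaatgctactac
The sources used here do not say how reads over shared bases were assigned. Per length, ND4L had a mean of 3.34 TPM (a level scaled to gene length and library size) and ND4 a mean of 78.8 TPM over the 6 libraries, although both lie on the same mRNA. ATP8 had a mean of 358 TPM and ATP6 one of 834 TPM.

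The share of counts taken by the 13 mitochondrial mRNAs differed between libraries by more than 3-fold, without separating the labels. It was 4.63%, 2.00% and 6.02% in GFP 1-1, 1-4 and 3-1, and 4.71%, 3.31% and 1.94% in PKCzeta 2-1, 4-1 and 4-2. GFP 1-4 and PKCzeta 4-2 were the low libraries, 1 from each label, and GFP 3-1 was the highest. The 89 nuclear members together took 1.11%, 1.45% and 1.16% of counts under the GFP label and 1.24%, 1.36% and 1.51% under the PKCzeta label. As shares of total counts they ran the other way: the 2 libraries with the least mitochondrial mRNA had the largest nuclear shares. On the TMM-scaled CPM scale this held for GFP 1-4 but not for PKCzeta 4-2. The latter was the lowest library for 34 of the 86 tested nuclear members. Counting error was small beside the differences in share, with 95% Wilson intervals of at most 0.0048 percentage points either way, which cover counting error only.

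The ratio of mitochondrial to nuclear counts was therefore widely spread inside both labels. It was 4.16, 1.38 and 5.21 in GFP 1-1, 1-4 and 3-1 and 3.81, 2.43 and 1.28 in PKCzeta 2-1, 4-1 and 4-2. The ranges of the labels overlapped from 1.38 to 3.81. GFP 1-1 and 3-1 lay above every PKCzeta library, and PKCzeta 4-2 lay below every GFP library. On the log2 scale the mean was 1.63 ± 1.03 (SD, n = 3) in GFP and 1.19 ± 0.79 (SD, n = 3) in PKCzeta, a difference of −0.44 that is smaller than either SD. Leaving out GFP 1-4 moved this difference to −1.03, leaving out PKCzeta 2-1 to −0.81, leaving out GFP 1-1 to −0.23, leaving out GFP 3-1 to −0.069 and leaving out PKCzeta 4-2 to −0.028. On summed TPM, which allows for length, the ratio had the same order of libraries, from 3.92 in GFP 3-1 to 1.08 in PKCzeta 4-2.

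**Figure D1:**
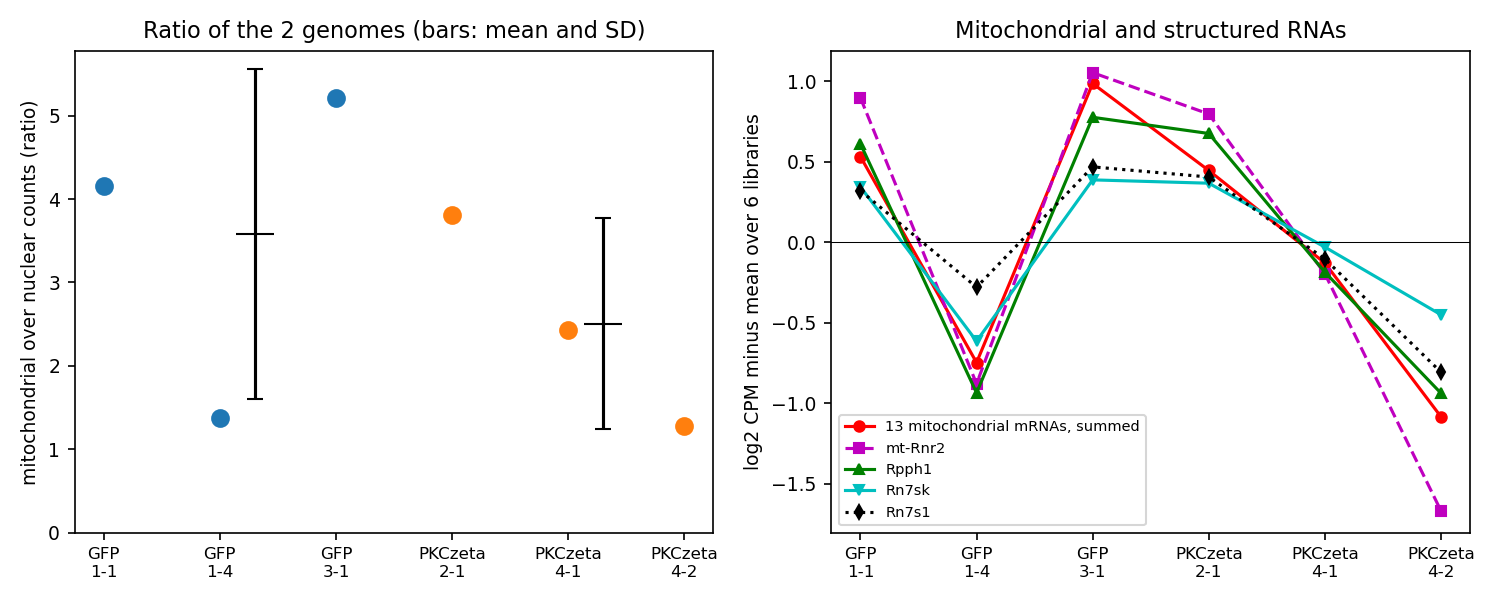
Left, the ratio of summed mitochondrial to summed nuclear counts in each library (blue, GFP; orange, PKCzeta), with the mean and SD of each label (n = 3) in black. Right, log2 CPM of the summed mitochondrial mRNAs, mt-Rnr2, Rpph1, Rn7sk and Rn7s1, each minus its mean over the 6 libraries; all 5 lines are low in GFP 1-4 and PKCzeta 4-2, and the lines only join the libraries, which have no order.

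Within the mitochondrial set the levels spanned more than 3 orders of magnitude, and 3 mRNAs of complex IV held most of the counts. COX1, the catalytic core of cytochrome c oxidase (complex IV), had the highest mean level, 21407 TPM. COX3 followed with 11516 TPM and COX2 with 3514 TPM, also core subunits of complex IV. Together these 3 mRNAs made up 93.5% to 94.2% of mitochondrial mRNA counts in every library, and COX1 alone 68.4% to 71.7%. The shares of the less abundant mRNAs moved more, with a ratio of the highest to the lowest library of 4.22 for ND6, 3.37 for ND4L, 1.68 for ND4, 1.66 for ND5 and 1.56 for ND3.

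Below them per length came the complex I subunit ND3 (2463 TPM), the proton channel subunit ATP6 (834 TPM), ND1 (747 TPM), CYTB, the only mitochondrial subunit of complex III (406 TPM), and ATP8 (358 TPM). The complex I subunits ND4 (78.8 TPM), ND5 (54.1 TPM), ND2 (24.5 TPM), ND6 (8.73 TPM) and ND4L (3.34 TPM) were lowest. The complex I mRNAs thus ran from 2463 TPM down to 3.34 TPM, although their proteins are parts of the same complex. Over the 6 libraries the TPM ranges of neighbours in this order separated only between COX3 and COX2, ND3 and ATP6, ATP8 and ND4, and ND6 and ND4L. The other ranges overlapped, but compared within a library the order was the same in 6 of 6 libraries for every pair of neighbours except ATP6 and ND1, where ATP6 was higher in 4 of 6.

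**Figure D2:**
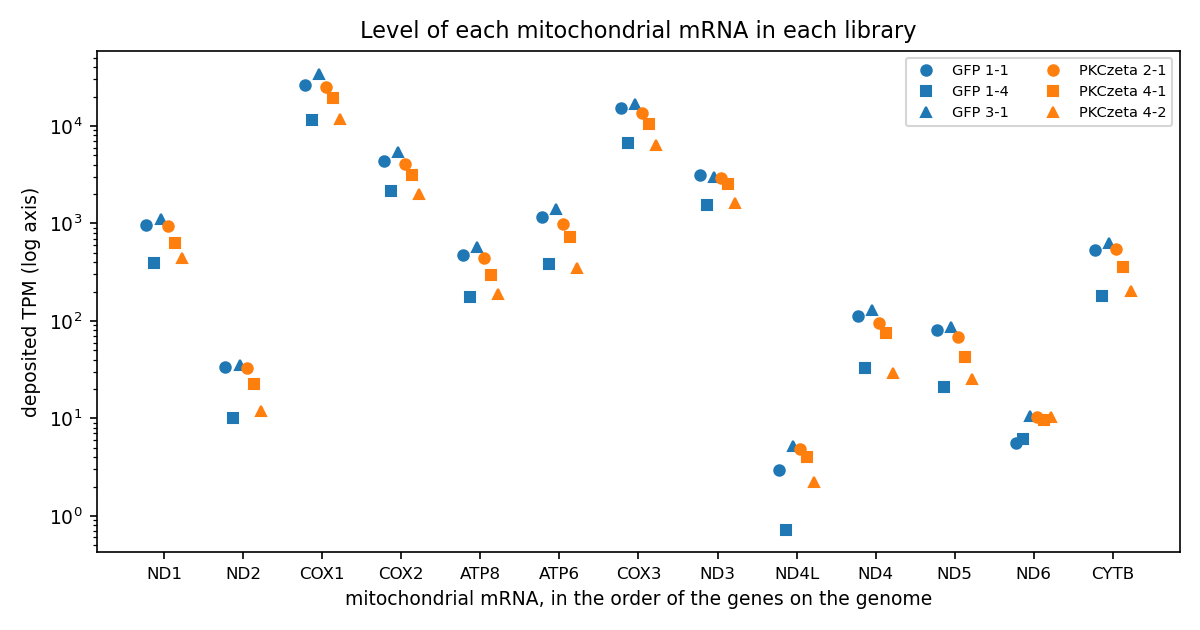
Deposited TPM (log axis) of each mitochondrial mRNA in each library, in gene order along the genome; blue symbols are GFP libraries and orange symbols PKCzeta libraries. COX1 and COX3 are highest, ND4L and ND6 lowest, and GFP 1-4 (blue squares) and PKCzeta 4-2 (orange triangles) are low for most mRNAs.

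The libraries ranked in nearly the same way for each mitochondrial mRNA. COX1 was at 34128, 14064 and 48951 CPM in GFP 1-1, 1-4 and 3-1 and at 32643, 21983 and 11300 CPM in PKCzeta 2-1, 4-1 and 4-2. COX3 was at 10005, 4147 and 12029 CPM in GFP and 8977, 6066 and 3134 CPM in PKCzeta. COX2 was at 2496, 1151 and 3399 CPM in GFP and 2359, 1564 and 854 CPM in PKCzeta. In all 3 the order was GFP 3-1, GFP 1-1, PKCzeta 2-1, PKCzeta 4-1, GFP 1-4 and PKCzeta 4-2, so the labels overlapped. The highest library was GFP 3-1 for 13 of the 13 mRNAs, and the lowest was PKCzeta 4-2 for 11 of them.

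The complex I, III and V mRNAs followed the same libraries. ND1 was at 774, 299 and 986 CPM in GFP and 749, 445 and 263 CPM in PKCzeta, and CYTB at 512, 161 and 657 CPM in GFP and 519, 300 and 145 CPM in PKCzeta. ATP6 was at 668, 208 and 873 CPM in GFP and 566, 361 and 148 CPM in PKCzeta. The ratio of the highest to the lowest library was 3.75 for ND1, 4.54 for CYTB and 5.89 for ATP6. It was 6.50 for ND4, 5.07 for ND5, 4.36 for ND2, 4.50 for ATP8 and only 2.69 for ND3.

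ND6 and ND4L were the 2 mRNAs whose lowest library was not PKCzeta 4-2. ND6, the only mitochondrial mRNA encoded on the light strand, had 192, 223 and 414 counts in GFP 1-1, 1-4 and 3-1 and 391, 298 and 349 counts in PKCzeta 2-1, 4-1 and 4-2. GFP 1-1, the second highest library for COX1, was the lowest for ND6, and PKCzeta 4-2 was not low. ND4L had 59, 15 and 118 counts in GFP and 107, 72 and 44 in PKCzeta, too few for a firm order. ND5 and ND6 lie on opposite strands and overlap by 14 bases, and without knowing whether the counting used strand, reads of the 2 strands over ND6 cannot be told apart.

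Between the labels, 11 of the 13 mitochondrial mRNAs had log2 fold changes below 0, with a median of −0.53 and a range from −0.70 (ATP6) to 0.20 (ND6). The median over all 18456 genes tested was 0.036, and 45.7% of them were below 0. By edgeR's quasi-likelihood test 0 of the 13 passed an adjusted p of 0.05, where 0% of all genes tested passed. At an unadjusted p of 0.05 the count was also 0 of 13 in edgeR (5.48% of all genes, 3.07% lower and 2.41% higher) and 0 of 13 in DESeq2 (6.2% of all genes), and the ranges of the labels did not separate for any of them. DESeq2 called 87 of 18169 genes at an adjusted p of 0.05 (0.479%), with none of the 102 members among them.

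The single differences all had intervals that reach both sides of 0. For COX1 the log2 fold change was −0.56 (95% interval −1.78 to 0.66, adjusted p = 0.918), for COX2 −0.56 (−1.63 to 0.51) and for COX3 −0.53 (−1.65 to 0.59). ATP6 differed by −0.70 (−2.12 to 0.71) and ATP8 by −0.59 (−1.87 to 0.69), CYTB by −0.46 (−1.84 to 0.91). Among the complex I mRNAs the values were −0.64 for ND5, −0.63 for ND4, −0.50 for ND1, −0.42 for ND2, −0.32 for ND3, 0.11 for ND4L and 0.20 for ND6. None of the 13 intervals stayed within 1.5-fold either way, so changes of that size were not detectable with this spread.

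The median of −0.53 rested on single libraries of both labels. It was −0.13 without GFP 3-1, −0.21 without PKCzeta 4-2, −0.86 without GFP 1-4 and −0.99 without PKCzeta 2-1, with 11 or 12 of 13 below 0 each time.

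Several of the mitochondrial mRNAs have a near copy in the nuclear genome, a stretch of mitochondrial DNA inserted on chromosome 1, and the stretches where gene and copy can or cannot be told apart are shown for that reason. In the GENCODE M21 annotation (GRCm38) the copies lie on the minus strand between chr1:24611535 and chr1:24616197. The copies of COX2 (Gm28661), COX3 (Gm28437), ATP6 (Gm10925) and ND4L (Gm10222), and that of the first 876 bases of ND4 (Gm28439), were 100% identical to the mitochondrial mRNA over their length. The copy of ND3 (Gm28438) matched at 344 of 345 bases and differed by T3C, counted from 1 at the first base of the mRNA. Their first bases are given with the differing base in capitals.
ND3: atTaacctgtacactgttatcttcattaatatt
Gm28438: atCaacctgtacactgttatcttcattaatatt

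The copy of COX1 (Gm29216) covers its last 492 bases, from position 1054 to 1545, and matched at 486 of them. All 6 differences, T1056A, C1057T, A1059G, A1060G, C1062A and A1066T, lie at the start of the copy, in capitals below.
COX1: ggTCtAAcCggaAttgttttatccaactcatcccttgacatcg
Gm29216: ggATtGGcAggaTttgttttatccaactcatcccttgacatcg
The counts of these pseudogenes were not analysed here, and the sources used here do not say how reads with 2 equal matches were treated. The 8 mRNAs with such a copy (ATP8 by position) differed between labels by a median of −0.56 on the log2 scale, and the 5 without one (ND1, ND2, ND5, ND6 and CYTB) by −0.46. ND1 and CYTB, without a copy, ranked the libraries from GFP 3-1 down to PKCzeta 4-2 as COX1 to COX3 did, apart from PKCzeta 2-1 standing just above GFP 1-1 for CYTB.

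Other RNAs that are not nuclear mRNAs were high and low in the same libraries. The large mitochondrial ribosomal RNA, mt-Rnr2, measured after ribosomal RNA depletion, was at 45494, 13295 and 50695 CPM in GFP 1-1, 1-4 and 3-1 and at 42441, 21342 and 7697 CPM in PKCzeta 2-1, 4-1 and 4-2. Rpph1, the RNA of nuclear RNase P, was at 12397, 4247 and 13896 CPM in GFP and 12961, 7137 and 4241 CPM in PKCzeta. Rn7sk, which holds the elongation factor P-TEFb, was at 19318, 9947 and 19905 CPM in GFP and 19622, 14908 and 11143 CPM in PKCzeta. Both nuclear RNAs are made by RNA polymerase III, as is Rn7s1, the RNA of the signal recognition particle, and like the mitochondrial mRNAs they were low in GFP 1-4 and PKCzeta 4-2. What part this has in the mitochondrial differences was not tested.

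A mitochondrial tRNA row showed the limits of counting on this genome. TrnS1 had between 1.19% and 1.29% of the COX1 count in every library, 14418 to 48004 counts, whereas no single one of the other 21 mitochondrial tRNAs exceeded 799 counts. TrnS1 lies on the other strand and overlaps the end of COX1.

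The nuclear members varied far less between libraries than the mitochondrial mRNAs. The median SD of log2 CPM over the 6 libraries was 0.159 for the 86 tested nuclear members and 0.88 for the 13 mitochondrial mRNAs, against 0.366 for all genes tested. Only 9.34% of all genes tested had an SD below the nuclear median, and 11.4% had one above the mitochondrial median. These shares are not matched for level: the median was 137 TPM for the nuclear members and 3.47 TPM for all genes tested. The median deviation of the mitochondrial mRNAs from their mean was 0.59, −0.88 and 1.01 in GFP 1-1, 1-4 and 3-1 and 0.53, −0.12 and −1.09 in PKCzeta 2-1, 4-1 and 4-2. For the nuclear members it was −0.12, 0.19 and 0.08 in GFP and −0.07, 0.00 and −0.07 in PKCzeta. GFP 1-4, low in mitochondrial mRNA, was the highest library for 52 of the 86 nuclear members, and GFP 1-1, high in mitochondrial mRNA, was the lowest for 36 of them. In other libraries the genomes went the same way: GFP 3-1, highest in mitochondrial mRNA, was also the highest for 28 nuclear members, and PKCzeta 4-2, lowest in mitochondrial mRNA, was the lowest for 34.

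**Figure D3:**
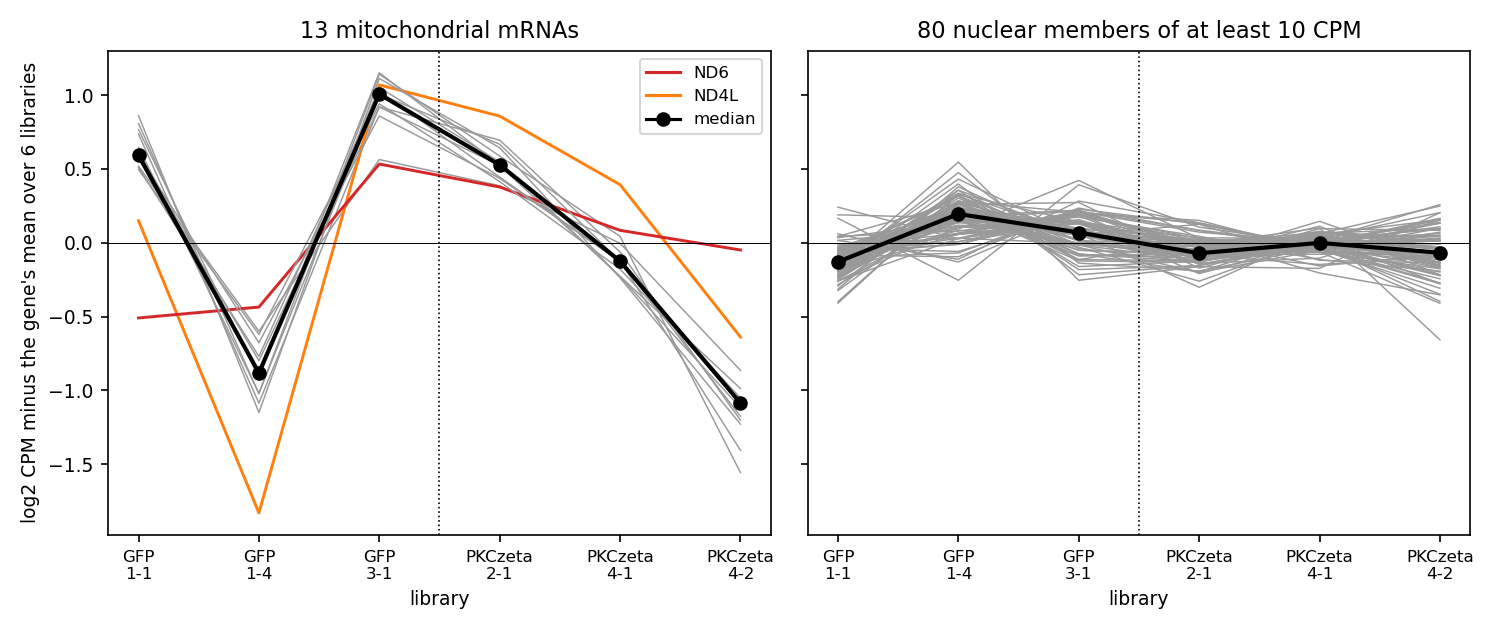
Log2 CPM of each gene minus its mean over the 6 libraries, for the 13 mitochondrial mRNAs (left) and the 80 nuclear members with a mean of at least 10 CPM (right); thin lines are genes, the black line is the median of the genes drawn, and lines only join the libraries. The mitochondrial medians run from 1.01 in GFP 3-1 to −1.09 in PKCzeta 4-2, while the nuclear lines stay close to 0; ND6 (red) and ND4L (orange) depart from the other mitochondrial lines.

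Between the labels, 76 of the 86 nuclear members had log2 fold changes below 0 on the CPM scale, with a median of −0.097 beside 0.036 for all genes tested. This direction depends on the scaling. On log2(TPM + 1), where the median of all genes was 0.14, the nuclear median was 0.13 and 9 of 86 were below 0. Below the median of all genes were 82 of 86 on the CPM scale, 45 of 86 on log2(TPM + 1) and 75 of 86 on log2(TPM + 0.1). Without GFP 1-4, 50 of 86 were below 0 and the median was −0.020. Without GFP 1-1 it was −0.18, without PKCzeta 4-2 −0.061 and without GFP 3-1 −0.059.

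No nuclear member passed an adjusted p of 0.05 in edgeR or DESeq2, and 0 of 86 passed an unadjusted p of 0.05 in either. With limma voom and sample quality weights, 2 of 86 had an unadjusted p under 0.05 and 0 an adjusted one. The share of all genes under that unadjusted p in this setting is not given here, so nothing is read from the count. The labels' CPM ranges did not overlap for 5 of 86, lower in PKCzeta (5.66% of all genes tested), and for 0 of 86, higher in PKCzeta (4.72%). The first share is near the background. The 95% interval of the fold change lay within 1.5-fold either way for 68 of 86 nuclear members, against 17.3% of all genes tested. That share is not matched for level either. For these 68 a change beyond 1.5-fold is outside the interval, which was not so for any mitochondrial mRNA.

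**Figure D4:**
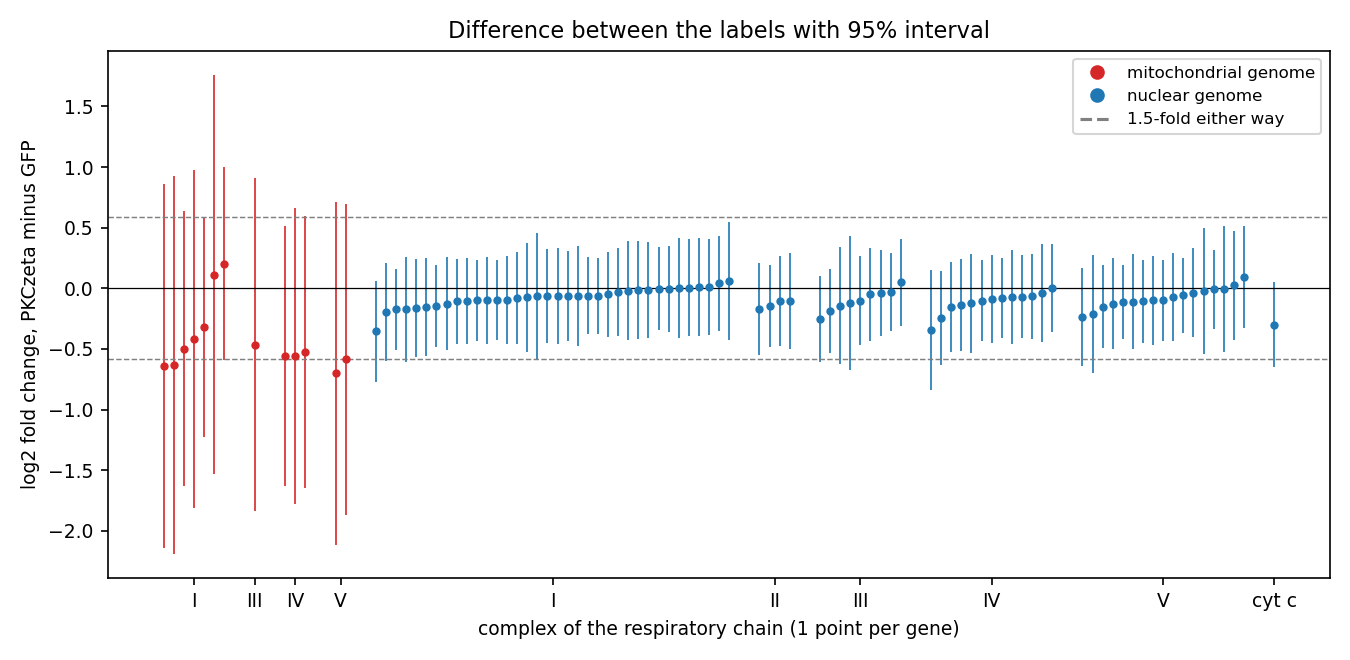
Log2 fold change, PKCzeta minus GFP, with its 95% interval from edgeR, for the 13 mitochondrial mRNAs (red) and the 80 nuclear members with a mean of at least 10 CPM (blue), grouped by complex. Dashed lines mark 1.5-fold either way; every interval drawn includes 0, with a median SE of 0.55 for the 13 mitochondrial mRNAs and 0.16 for the 80 nuclear members.

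Complex I, the NADH dehydrogenase, had 38 tested nuclear members, 32 of them below 0, and their median difference was −0.067. The 3 with the smallest p were Ndufb4, Ndufa13 and Ndufa6, all accessory subunits. Ndufb4 was at 41.7, 43.9 and 55.2 CPM in GFP and 42.0, 35.7 and 32.3 CPM in PKCzeta, a log2 fold change of −0.36 (SE 0.18, unadjusted p = 0.083, adjusted p = 0.917). The lowest GFP value lay below the highest PKCzeta value. Ndufb4 also has 2 near-identical gene copies in the table, Ndufb4b and Ndufb4c, at means of 4.91 and 5.65 TPM beside 116 TPM for Ndufb4, so the division of reads among the 3 is uncertain.

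Ndufa13 was at 66.9, 75.7 and 77.8 CPM in GFP and 71.1, 63.7 and 60.4 CPM in PKCzeta, a difference of −0.17 on the log2 scale. Ndufa6 was at 110, 113 and 122 CPM in GFP and 118, 102 and 80.2 CPM in PKCzeta, a difference of −0.20. In both the overlap came from PKCzeta 2-1, and the low end from PKCzeta 4-2. Redox core subunits such as Ndufs1 (−0.012), Ndufv1 (−0.022) and Ndufv2 (−0.060), picked out after their values were seen, lay nearer to 0 on the log2 fold change scale.

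Complex II, succinate dehydrogenase, is also an enzyme of the tricarboxylic acid cycle and has no mitochondrial subunit. Sdha, its flavoprotein, was at 337, 440 and 326 CPM in GFP and 325, 346 and 356 CPM in PKCzeta. Sdhb, the iron-sulfur subunit, was at 165, 217 and 176 CPM in GFP and 176, 171 and 150 CPM in PKCzeta. The genes of the membrane anchors were close to these in pattern, with Sdhc at 102, 131 and 108 CPM in GFP and 94.6, 105 and 116 CPM in PKCzeta, and Sdhd at 168, 207 and 176 CPM in GFP and 160, 172 and 167 CPM in PKCzeta. GFP 1-4 was the highest library for all 4, opposite to its place for the mitochondrial mRNAs. Their log2 fold changes were −0.10, −0.17, −0.11 and −0.14, and all 4 were above 0 on the log2(TPM + 1) scale, where they ran from 0.061 to 0.13. The median of all genes tested was 0.036 on the CPM scale and 0.14 on log2(TPM + 1), above all 4 on both.

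Complex III, which passes electrons from ubiquinol to cytochrome c, had 9 tested nuclear members with a median of −0.10. Uqcrb, a small subunit near the quinone site, was at 204, 239 and 209 CPM in GFP and 194, 192 and 160 CPM in PKCzeta, without overlap, a log2 fold change of −0.26 (SE 0.15, unadjusted p = 0.14, adjusted p = 0.917). Uqcrq was at 50.01, 58.6 and 56.1 CPM in GFP and 51.7, 49.8 and 43.3 CPM in PKCzeta, and the core protein gene Uqcrc1 at 249, 387 and 253 CPM in GFP and 244, 273 and 288 CPM in PKCzeta. For Uqcrc1 the label difference of −0.14 came from 1 library: it was 0.096 without GFP 1-4. Cyc1, the cytochrome c1 of the complex, had the same shape, with 209 CPM in GFP 1-4 beside 128 and 120 CPM in the other GFP libraries and 128, 127 and 165 CPM in PKCzeta, and its difference of −0.12 became 0.17 without GFP 1-4.

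Cytochrome c, the mobile carrier between complexes III and IV, is encoded by Cycs. It was at 391, 337 and 376 CPM in GFP 1-1, 1-4 and 3-1 and at 299, 324 and 274 CPM in PKCzeta 2-1, 4-1 and 4-2. The labels did not overlap, with a difference of −0.30 on the log2 scale (SE 0.15, unadjusted p = 0.086, adjusted p = 0.917) and an interval from −0.65 to 0.053. Unlike most nuclear members, Cycs was highest in GFP 1-1.

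Complex IV had 17 tested nuclear members with a median of −0.12. Cox4i1, its most abundant nuclear subunit by TPM, was at 457, 511 and 520 CPM in GFP and 482, 482 and 389 CPM in PKCzeta, a log2 fold change of −0.14. Cox6a1 was at 139, 189 and 191 CPM in GFP and 146, 154 and 138 CPM in PKCzeta, a difference of −0.25 (SE 0.17). Cox7c and Cox6b1, among the 5 nuclear members with the highest mean TPM (587 and 562), differed by −0.068 and −0.069. PKCzeta 4-2 was the lowest library for Cox4i1, Cox6a1 and Cox7c, but not for Cox6b1.

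Several complex IV subunits have tissue isoforms, and only 1 alternative isoform was expressed at a level near its partner. Cox7a1, known as the heart and muscle form, was at 33.8, 33.3 and 34.4 CPM in GFP and 29.4, 31.8 and 18.8 CPM in PKCzeta, without overlap, a log2 fold change of −0.34 (SE 0.22, unadjusted p = 0.15, adjusted p = 0.917). Per length it stood at 49.4%, 44.3% and 43.2% of the widely expressed Cox7a2 in GFP and at 41.4%, 41.5% and 28.2% in PKCzeta. PKCzeta 4-2 stood apart with the lowest share, and the other 5 libraries lay close together.

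The 12 smooth muscle markers had summed levels of 1020 to 2256 CPM in GFP and 1468 to 1767 CPM in PKCzeta, with 12 of 12 below 0, a median of −0.25 and none at 0. Their lowest library was GFP 1-4, where Cox7a1 was not low. Of 14 striated muscle markers, 6 passed the filter, with sums of 7.76 to 13.2 CPM in GFP and 12.1 to 14.3 CPM in PKCzeta, and Myh2 and Myh4 were at 0. Their part in the Cox7a1 values was not tested.

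The other alternative isoforms were close to absent. Cox4i2, a form known from hypoxia and lung, had less than 0.051% of the Cox4i1 level per length in every library, Cox8b at most 0.21% of Cox8a, and Cox6b2, the testis form, 0.25% to 0.40% of Cox6b1. Cox7b2 and Cox8c had 0 counts in all 6 libraries, and Cox6a2, the muscle form, had reads only in PKCzeta 4-1. Ndufa4l2, a hypoxia-inducible relative of the complex IV subunit Ndufa4, was at 0.16, 0.26 and 0.29 CPM in GFP and 0.046, 0.098 and 0.14 CPM in PKCzeta. That is 0.019% to 0.097% of Ndufa4 per length, and its log2 fold change of −1.29 (SE 0.63, unadjusted p = 0.072, adjusted p = 0.917) rests on few reads. Cox8b and Cox4i2 had similarly few reads, with log2 fold changes of −0.28 (SE 1.15) and −0.64 (SE 0.63).

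ATP synthase (complex V) had 17 tested nuclear members with a median of −0.097. Its catalytic beta subunit gene Atp5b had the highest mean of all nuclear members, 1096 TPM, and was at 1428, 1861 and 1457 CPM in GFP and 1448, 1696 and 1682 CPM in PKCzeta. The difference was 0.024, with a 95% interval from −0.42 to 0.47. The alpha subunit gene Atp5a1, at a mean of 696 TPM, differed by −0.021 and was again highest in GFP 1-4, at 1702 CPM beside 1137 and 1111 CPM in the other GFP libraries. On the same TPM scale the mitochondrial COX1 had a mean of 21407, far above any nuclear member.

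Atp5d, the delta subunit of the rotor stalk, was at 102, 152 and 116 CPM in GFP and 107, 102 and 105 CPM in PKCzeta, a difference of −0.24 (SE 0.18). Atp5j2, of the membrane sector, differed by −0.15 (SE 0.15). Atp5md, a small membrane subunit, was at 155, 116 and 181 CPM in GFP and 148, 137 and 105 CPM in PKCzeta, a difference of −0.21 (SE 0.21). Atp5md had the order of the mitochondrial mRNAs, highest in GFP 3-1 and lowest in PKCzeta 4-2 and GFP 1-4, but over a 1.73-fold range. Atp5j, of the peripheral stalk, was the fifth nuclear member whose CPM ranges did not overlap, with a difference of −0.11. Atp5pb, of the same stalk, had the smallest SD of all genes tested, 0.022; these 2 genes were picked out after their values were seen.

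Promoters of the nuclear members were searched for the palindrome of the nuclear respiratory factor NRF1, a transcription factor known for its sites in respiratory chain genes. RefSeq promoters of GRCm38.p6, from 250 bases before to 50 after a gene's start, were found for 71 of the 89 genes (76 promoters). Its exact palindrome of 10 letters, readable in capitals below, occurred in 5 of 76 member promoters (6.58%) and in 0.971% of all 32851 promoters. In 4 genes the match lies before the start, and these are shown 5′ to 3′ on the gene's strand with the match in capitals, at chr5:108434405-108434484 (minus, Atp5k), chr5:115349076-115349155 (minus, Cox6a1), chr15:102671048-102671124 (minus, Atp5g2) and chr17:56717667-56717746 (plus, Ndufa11).
Atp5k: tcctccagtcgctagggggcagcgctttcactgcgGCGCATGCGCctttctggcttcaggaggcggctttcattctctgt
Cox6a1: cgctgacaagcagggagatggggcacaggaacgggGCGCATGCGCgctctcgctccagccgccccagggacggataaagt
Atp5g2: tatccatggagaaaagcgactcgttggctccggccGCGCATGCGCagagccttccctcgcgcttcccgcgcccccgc
Ndufa11: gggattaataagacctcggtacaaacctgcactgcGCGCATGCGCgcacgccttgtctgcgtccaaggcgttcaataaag
The match lies 50, 162, 42 and 60 bases before the start, and in Uqcrc1 it lies 30 bases after it. A match is a description of these letters, not of binding.

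With the fifth letter free, the palindrome occurred in 18 of 76 member promoters (23.7%) and in 4.60% of all promoters. The log2 fold changes of the 17 tested members with it had a median of −0.11, and those of the 53 without it a median of −0.069. On both strands, the YY1 letters AAGATGGC were in 13.2% of member promoters and 2.75% of all, the ETS letters CCGGAAG in 22.4% and 8.86%, the SP1 letters GGGCGG in 40.8% and 35.7%, and TATAAA in 11.8% and 13.6%. Among the promoters of other protein-coding genes in the table the shares were 6.31% for the relaxed NRF1 palindrome, 3.01% for YY1, 11.5% for ETS, 46.2% for SP1 and 12.6% for TATAAA. The member shares for NRF1, YY1 and ETS were above both backgrounds, that for SP1 lay between them, and that for TATAAA was below both. Promoters of mitochondrial ribosomal proteins held the ETS letters in 34.7% and the YY1 letters in 16%, above the members. They held the relaxed NRF1 palindrome in 17.3% and the exact one in 4%, below the members but above all promoters. A raised NRF1 share was thus not particular to the members.

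The genes that serve the mitochondrial genome did not follow its mRNAs across libraries. Of 31 genes of mitochondrial transcription, RNA processing and decay, 28 had log2 fold changes above 0 and 3 below, with a median of 0.19, and none passed an adjusted or an unadjusted p of 0.05 in edgeR or DESeq2. Trmt10c, a subunit of mitochondrial RNase P, was at 14.4, 17.6 and 12.7 CPM in GFP and 17.1, 17.7 and 24.6 CPM in PKCzeta, a difference of 0.41 (SE 0.22, adjusted p = 0.917). Mterf4, which acts in mitochondrial ribosome assembly, differed by 0.39. The list's median deviation was highest in PKCzeta 4-2 (0.38) and GFP 1-4 (0.18), the 2 libraries with the least mitochondrial mRNA.

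Of 13 genes of mitochondrial DNA maintenance, 11 were above 0, with a median of 0.27 and none under an unadjusted p of 0.05. Top1mt, the mitochondrial topoisomerase, was at 1.46, 2.37 and 1.34 CPM in GFP and 1.77, 2.63 and 3.43 CPM in PKCzeta, a difference of 0.60 (SE 0.37). Rnaseh1, which removes RNA from RNA-DNA hybrids, differed by 0.44. As in the first list, GFP 1-4 and PKCzeta 4-2 were high. The same held for the lists below, except the biogenesis regulators, so it was not particular to genes that serve the mitochondrial genome.

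Among 13 tested regulators of mitochondrial biogenesis, 7 were below 0 and 6 above, with a median of −0.16. Pprc1, a coactivator that works with NRF1, was at 5.07, 5.42 and 4.32 CPM in GFP and 6.77, 7.23 and 9.50 CPM in PKCzeta, without overlap, a log2 fold change of 0.67 (SE 0.24, unadjusted p = 0.022, adjusted p = 0.867). Ppard, a lipid-sensing nuclear receptor, was at 20.3, 11.8 and 24.0 CPM in GFP and 15.4, 8.80 and 11.1 CPM in PKCzeta, a difference of −0.67 (SE 0.32). Neither passed the adjusted threshold.

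**Figure D5:**
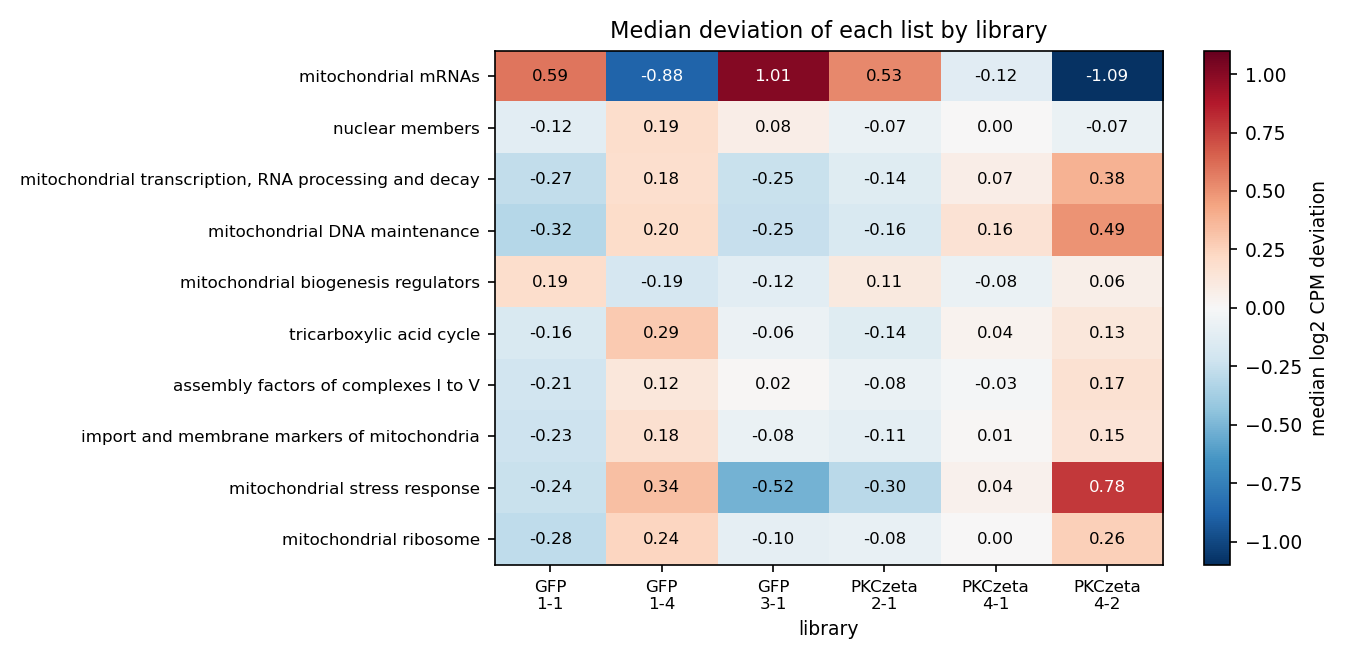
Median log2 CPM deviation (colour and number) of the mitochondrial mRNAs, the nuclear members and the 8 lists of mitochondrial genes, 1 row per list and 1 column per library. The first row is low in GFP 1-4 (−0.88) and PKCzeta 4-2 (−1.09), where the row of every list except the biogenesis regulators has its highest values. The medians of all genes tested, not drawn, were 0.0049 in GFP 1-4 and 0.073 in PKCzeta 4-2.

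The tricarboxylic acid cycle, which feeds electrons to the chain, held 2 of the smallest p-values in these lists. Ogdh, of the 2-oxoglutarate dehydrogenase complex, was at 436, 497 and 503 CPM in GFP and 299, 359 and 293 CPM in PKCzeta, without overlap, a log2 fold change of −0.59 (SE 0.16, unadjusted p = 0.0064, adjusted p = 0.858). Mdh2, malate dehydrogenase, was at 180, 238 and 143 CPM in GFP and 120, 133 and 126 CPM in PKCzeta, a difference of −0.56 (SE 0.20, unadjusted p = 0.023, adjusted p = 0.867). Over the list, 10 of 18 were below 0 with a median of −0.032, and 2 of 18 had an unadjusted p under 0.05 and were lower, where the share over all genes tested was 3.07%. The Sdh genes are members of this list as well.

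The remaining lists had medians close to that of all genes, apart from the stress response. Assembly factors of complexes I to V had a median of 0.027 (23 below and 25 above 0), with Atpaf1, an ATP synthase assembly factor, at −0.32 and Sco2, a copper chaperone of complex IV, at 0.45. Import and membrane markers had a median of 0.075 (7 below, 16 above), with the outer membrane fusion gene Mfn2 at −0.34 (unadjusted p = 0.045, adjusted p = 0.902) and the import receptor gene Tomm70a at 0.31. The 78 mitochondrial ribosomal proteins had a median of 0.084 (18 below, 60 above), with Mrpl27 at −0.39 and Mrpl9 at 0.33.

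The 14 tested genes of the mitochondrial stress response had a median of 0.23, 11 of them above 0. Psat1, of serine synthesis, was at 8.32, 13.3 and 7.33 CPM in GFP and 7.74, 16.0 and 34.0 CPM in PKCzeta, a log2 fold change of 0.99 (SE 0.50, adjusted p = 0.917), and Phgdh, of the same pathway, was at 6.79, 14.1 and 6.47 CPM in GFP and 9.81, 10.1 and 28.9 CPM in PKCzeta. Both were highest in PKCzeta 4-2. In GFP 1-4 both were the highest of the GFP libraries.

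Markers of the cell types that the tissue holds were measured beside these genes. The 14 enterocyte markers, which include Alpi, Fabp2 and Apob, were all below 0, by a median of −0.92 on the log2 scale, and 9 of 14 had an unadjusted p under 0.05 in edgeR, where the share of all genes that were lower at that p was 3.07%. Their summed level was 61213, 51190 and 51433 CPM in GFP 1-1, 1-4 and 3-1 and 33586, 42699 and 20712 CPM in PKCzeta 2-1, 4-1 and 4-2, with no marker at 0. DESeq2 called 3 of the 14 at an adjusted p of 0.05, where the share over all genes was 0.479%. The sum of these markers separated the labels. For single markers the CPM ranges of the labels did not overlap for 6 of 14, lower in PKCzeta (5.66% of all genes tested), and overlapped for the rest. The ranges separated for no mitochondrial mRNA. GFP 1-4 had an enterocyte sum above every PKCzeta library and little mitochondrial mRNA. The 12 immune markers had 11 of 12 above 0 and a median of 0.74, with sums of 140 to 322 CPM in GFP and 252 to 560 CPM in PKCzeta and none at 0. In edgeR 2 of the 12 were higher at an unadjusted p under 0.05 (2.41% of all genes tested). DESeq2 called 1 of the 12 at an adjusted p of 0.05.

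Red cell markers, 5 of 5 below 0 with none at 0, had sums of 57.2 to 303 CPM in GFP and 22.2 to 81.1 CPM in PKCzeta, with GFP 3-1 at the top as it was for mitochondrial mRNA. Crypt and proliferation markers had sums of 775 to 1089 CPM in GFP and 670 to 1218 CPM in PKCzeta, highest in PKCzeta 4-2 and GFP 1-4 (8 of 10 above 0). Goblet and Paneth, fibroblast and endothelial, neuron and glia, and adipocyte markers had medians of −0.054, −0.020, 0.53 and −0.29. Of the 10 neuron and glia markers, 1 was higher at an unadjusted edgeR p under 0.05 (2.41% of all genes tested). DESeq2 called 1 of the 10 at an adjusted p of 0.05 (0.479% of all genes). Pancreatic acinar markers summed to less than 0.48 CPM in every library, with Pnlip, Amy2a5 and Cela3b at 0. The part of cell composition in the levels of the respiratory chain genes was not tested.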

How the data were processed

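Total RNA of mouse small intestine was sequenced in 6 libraries. Per the labels' protocols, RNA was purified on columns, ribosomal RNA was depleted and the library kit keeps the strand. HISAT2, StringTie, Trimmomatic and FastQC with the build mm10 are named in the submitters' processing notes. The sources used here do not name the counting program, its use of strand or its treatment of reads with several matches. In 1 deposited table, the authors gave a whole-number read count, an FPKM value (not used) and a TPM value per gene and library, per the file headers. The deposited TPM values, scaled to gene length and library size, served for levels and for an alternative test.

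The test on counts was that of edgeR 4.0.16 under R 4.3.3 (filterByExpr, which kept 18456 genes; TMM; robust quasi-likelihood F test, two-sided, Benjamini-Hochberg adjustment, threshold 0.05, biological coefficient of variation 0.354). Log2 CPM deviations use a prior count of 2. Fold changes are PKCzeta minus GFP with SE and 95% interval. DESeq2 1.42.0 and limma 3.58.1 gave alternatives. The edgeR step was tested on simulated counts. RefSeq matched 45679 of the 45777 gene IDs; mitochondrial symbols are printed as in the table.

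Groups come from the titles, and no group shares a replicate number with the other. The members and the lists were chosen with earlier results of these data known. Named are Prkcz, the mitochondrial mRNAs, the Sdh genes, Cycs and Cyc1, the tissue isoforms and partners, per complex the 3 nuclear members with the smallest p, the 5 nuclear members highest in TPM and the 5 with the largest SD, and per pathway list the 2 genes with the smallest p; others were named after their values were seen. Alternatives were other scalings, filters, tools and units, and leaving out each library. The values of 1 member are not reported here by name.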

Additional observations from a re-analysis of the deposited data

How the results depend on the processing

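With edgeR and TMM, 0 genes passed the adjusted threshold, and 0 did so in each other setting except DESeq2, which called 87; the cause was not tested. The median log2 fold change of the mitochondrial mRNAs stayed below 0 in the 10 other settings, from −0.29 to −0.75, and in the 6 that each left out 1 library, from −0.99 to −0.13. That of the nuclear members was −0.18 to −0.020 with each library left out, but 0.13 on log2(TPM + 1) and 0.14 on log2(TPM + 0.1), where the medians of all genes were 0.14 and 0.23; the cause was not tested. The log2 difference of the genome ratio was −1.03 to −0.028 with each library left out, −0.42 on TPM and −0.27 as a difference of mean log2 CPM. Of 542 comparisons of single members with an alternative, 41 had the opposite sign. With limma voom these were ND4L (−0.052), Cyc1 (0.018) and Atp5a1 (0.10). On log2(TPM + 1) they were Sdha (0.13), Sdhb (0.061), Sdhc (0.12), Sdhd (0.086), Cyc1 (0.24), Cox4i1 (0.084), Ndufa6 (0.011), Uqcrq (0.036), Uqcrc1 (0.11), Atp5d (0.32), Atp5j2 (0.081), Atp5md (0.022) and Atp5a1 (0.23). On log2(TPM + 0.1) they were Sdha (0.13), Sdhb (0.061), Sdhc (0.12), Sdhd (0.087), Cyc1 (0.24), Cox4i1 (0.084), Ndufa6 (0.011), Uqcrq (0.037), Uqcrc1 (0.11), Atp5d (0.32), Atp5j2 (0.081), Atp5md (0.022) and Atp5a1 (0.23). With each library left out the ranges that crossed 0 were −0.057 to 0.16 for Atp5b, −0.36 to 0.90 for ND4L, −0.18 to 0.045 for Sdha, −0.19 to 0.0087 for Sdhc, −0.27 to 0.17 for Cyc1, −0.27 to 0.096 for Uqcrc1 and −0.13 to 0.21 for Atp5a1. No paired analysis was possible because the 2 groups share no replicate number. Depth limits the members below 1 CPM (Cox8b, Cox4i2, Ndufa4l2, Cox6b2) and ND4L.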
